A study of Mus musculus with 3 samples.

Results

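Among PB leukocytes of naive and leukemic mice, 105 of 12792 barcodes passed a gate written for circulating hematopoietic progenitors, with 16 from naive mice, 36 from D11 and 53 from D14. A barcode is the tag of 1 droplet and usually stands for 1 cell, and a UMI marks 1 captured mRNA molecule. A barcode was a member if it had at least 3 UMIs of Mecom, Meis1, Kit and Hlf together (the stem arm) or at least 5 of Mpo, Elane, Prtn3 and Ctsg (the granule arm). It also had to have at most 1 UMI of the pro-B genes Vpreb1, Igll1, Dntt and Rag1, under 2% of its UMIs in S100a8 and S100a9, and at most 1 UMI of Cd3e, Cd79a and F13a1. The members were thus chosen by their measured counts of these genes, and the levels of the gate genes describe the choice and are not a result.

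The 3 scRNA-seq libraries hold 1 condition each, so no difference between them has a replicate check, no test was run, and every interval in brackets is a 95% interval for counting error only. The naive library came from wild-type mice without leukemia, and the D11 and D14 libraries came from wild-type mice 11 and 14 days after engraftment of BBC2 cells. The mice were described in the methods as female Balb/C, and the number that gave blood to each library is not given in the sources used here. The BBC2 line models the stem cell leukemia and lymphoma syndrome (SCLL). It carries the fusion kinase BCR-FGFR1, was derived from the cells of a primary leukemia, and its cells resemble pro-B cells, so all leukemic mice here carried leukemia of 1 line. Red cells had been lysed and dead cells removed from all 3 samples. The libraries held 30362408, 57640396 and 65861863 UMIs (naive, D11 and D14, the order used throughout), and the barcodes kept had medians of 6031, 6389 and 6781 UMIs. The members were deeper, with medians of 11486, 11852 and 12572 UMIs, and 0 member barcodes were shared between libraries (3 to 5 kept barcodes were shared by each pair).

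Hematopoietic stem and progenitor cells live mainly in the bone marrow, and a few circulate in the blood. Mecom, Meis1 and Hlf are transcription factors of the stem cell state, and Kit is the receptor for stem cell factor. Mpo, Elane, Prtn3 and Ctsg encode enzymes of the primary granules that myeloid progenitors begin to make as they commit to the granulocyte and monocyte lineages. In the GRCm38 assembly with GENCODE vM21, Mecom lies at chr3:29951296-30548008 (minus strand), Meis1 at chr11:18879817-19018985 (minus), Hlf at chr11:90336536-90390895 (minus) and Kit at chr5:75574916-75656722 (plus). Mpo lies at chr11:87793581-87804413 (plus) and Ctsg at chr14:56099881-56102574 (minus). All are annotated as protein coding.

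Members made up 0.420% (0.240 to 0.681) of the 3811 naive barcodes, 0.788% (0.553 to 1.09) of the 4567 at D11 and 1.20% (0.901 to 1.57) of the 4414 at D14. The share at D14 was 2.86 times (1.61 to 5.36) that of the naive library, and the ratio of D14 to D11 was 1.52 (0.979 to 2.39). Barcodes with 10% or more of their UMIs from hemoglobin genes, which mark red cells left after lysis, numbered 93, 1482 and 1179, and without them in the denominator the shares were 0.430%, 1.17% and 1.64%. Every member passed by the stem arm. The granule arm was passed as well by 1 naive, 7 D11 and 1 D14 members, and 0 members passed by it alone. A further 1, 10 and 41 barcodes had passed the granule arm without the stem arm, and the exclusions removed each of them. Of the 105 members, 55 had 3 or 4 stem-arm UMIs, with 5, 12 and 18 barcodes at exactly 3, and 14, 22 and 27 barcodes at 2 that met all other conditions. At 10 stem-arm UMIs or more there were 2, 18 and 15.

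The label of hematopoietic progenitors did not hold for most members. Leiden clustering of the 105 barcodes, with the genes of the gate left out, gave 4 groups, of which 1 with 37 barcodes carried markers of hematopoietic stem and progenitor cells (HSPCs) beyond the gate. These 37 are called progenitor-like below, a name that 19 of them did not keep at higher resolution. They had at least 4 times the median level over the groups for 14 of 20 HSPC markers that the gate did not use, and their leading genes included 2610307P16Rik, Dnajc6, Adgrg1 and Rab38. Adgrg1, an adhesion receptor of stem cells also known as GPR56, stood at 171 CPM (UMIs per 1000000 UMIs of the summed barcodes) against 0 UMIs in all other members. The same group held 4 of 8 endothelial markers (Tek, Egfl7, Esam and Emcn), genes that stem cells share with endothelium. The defining endothelial genes Cdh5, Kdr, Ptprb and Cldn5 were at 0 UMIs in its D11 and D14 barcodes. Since the clusters were drawn on these same cells, their leading genes describe them and are no test.

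The largest group, with 50 barcodes, was led by Cd300e, Fcgr4, Smpdl3b, Cd300ld and Ear2, and had 7 of 8 markers of non-classical monocytes (ncMonos), the patrolling monocytes of blood. It is called the Cd300e-Fcgr4 cluster, since Ear2, an eosinophil-list gene, among its top genes kept it from a name. Fcgr4, an Fc receptor, was at 824 CPM in the cluster and 1.21 CPM in the other members, and Cd300e, an activating receptor of myeloid cells, was at 407 CPM and 0. Its barcodes entered the gate on few UMIs of Meis1 (3 to 7 stem-arm UMIs, median 3). Of the 50, 49 had Meis1 as the only stem-arm gene found, and Mecom, Hlf and Mpo were at 0 UMIs in all of them. By contrast the progenitor-like barcodes had 7 to 135 stem-arm UMIs with a median of 39, and 34 of the 37 held 2 or more of the 4 genes, against 1 of the 50. The ncMono markers summed to a median of 40.5 UMIs per barcode in the Cd300e-Fcgr4 cluster and 4 in the progenitor-like group. A group of 12 barcodes was NK-like (6 of 7 NK markers with 5 of 8 T-cell markers), led by Klra7, Adamts14, Tcf7, Sh2d1a and Gm2682. A group of 6 was DC-like (5 of 9 dendritic markers), led by Clec9a, Cd209a, Ifi205, H2-DMb1 and Strip2.

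**Figure D1:**
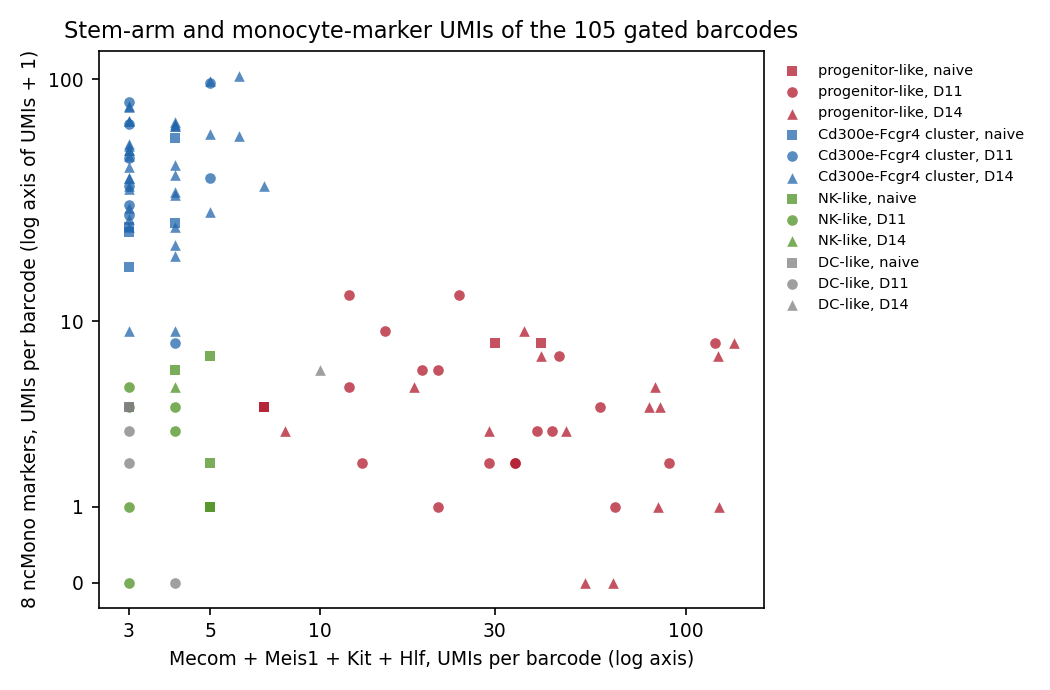
Each point is 1 of the 105 gated barcodes, with its UMIs of Mecom, Meis1, Kit and Hlf on the x axis and of 8 ncMono markers on the y axis, both on log axes; color gives the class and shape the library. The 50 barcodes of the Cd300e-Fcgr4 cluster sit at 3 to 7 stem-arm UMIs with 8 to 103 monocyte-marker UMIs, and the 37 progenitor-like barcodes spread from 7 to 135 stem-arm UMIs with at most 13.

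The makeup of the members differed between the libraries. Progenitor-like barcodes were 4 of 16 naive members (25%, 7.27 to 52.4), 18 of 36 at D11 (50%, 32.9 to 67.1) and 15 of 53 at D14 (28.3%, 16.8 to 42.3). The Cd300e-Fcgr4 cluster held 5, 9 and 36 members, which was 67.9% (53.7 to 80.1) of the D14 members. NK-like members numbered 5, 6 and 1, and DC-like members 2, 3 and 1. As a share of kept barcodes, the progenitor-like group took 0.105% (0.0286 to 0.269), 0.394% (0.234 to 0.622) and 0.340% (0.190 to 0.560). The share was 3.76 times (1.24 to 15.3) that of naive mice at D11, and at D14 it was 3.24 times (1.03 to 13.4). The ratio of D14 to D11 was 0.862 (0.405 to 1.81), an interval that holds both a lower and a higher share. In the Cd300e-Fcgr4 cluster the ratio of D14 to D11 was 4.14 (1.96 to 9.77). Of all kept barcodes outside the gate, 184, 280 and 671 had 10 or more UMIs of the ncMono markers, and at least 1 Meis1 UMI was found in 6.52%, 12.5% and 15.3% of them.

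**Figure D2:**
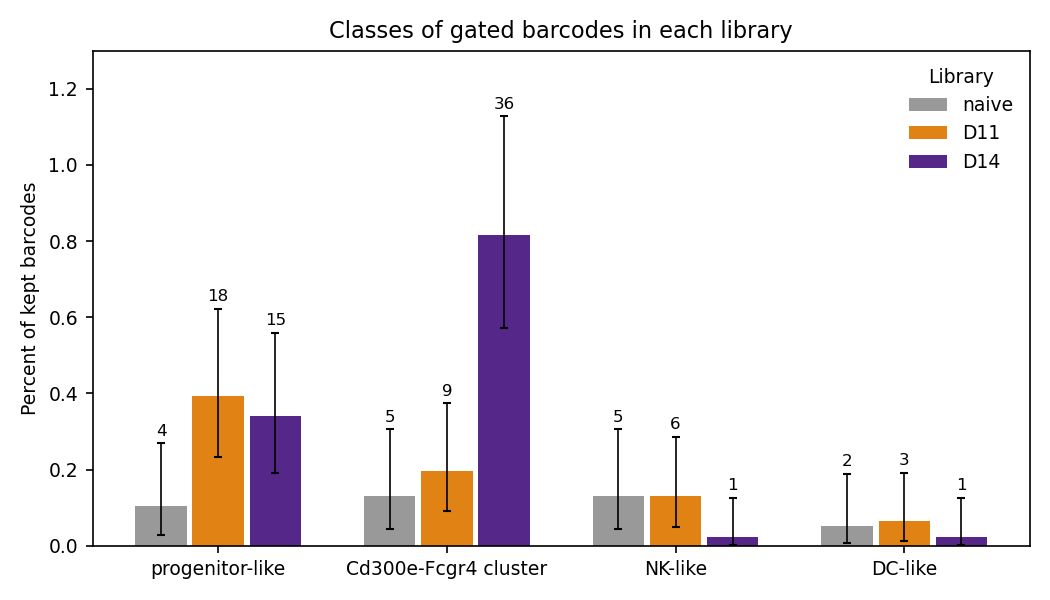
Bars give the percent of kept barcodes in each library that fell in the 4 classes of gated barcodes, with 95% Clopper-Pearson intervals for counting error and the number of barcodes above each bar. The progenitor-like share is 0.394% at D11 and 0.340% at D14, while the Cd300e-Fcgr4 share is 0.197% at D11 and 0.816% at D14.

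Some of the 37 barcodes carried marks of other lineages. A D11 barcode with 24608 UMIs held 497 UMIs of basophil and mast cell genes, and 307 of the 308 Mcpt8 UMIs at D11. A naive barcode held 82 UMIs of the same list with 7 of Meis1 and 0 of Mecom, Kit and Hlf. Another D11 barcode held all 114 UMIs of Car1, a carbonic anhydrase of erythroid cells, and a second naive barcode held 34 UMIs of the endothelial list where no other exceeded 9. Of the 2 endothelial genes measured, Tek was higher at D14 (46.7, 11.4 and 52.2 CPM). In 2 D11 barcodes, hemoglobin took 54.0% and 67.8% of UMIs. With the 4 basophil-, erythroid- and endothelial-marked barcodes left out, 2, 16 and 15 remained, the ratio of D11 to naive was 6.68 (1.57 to 59.8), and that of D14 to D11 was 0.970 (0.447 to 2.09). With the barcodes of highest Scrublet doublet score left out, a number preset at 0.8% per 1000 kept barcodes, 1, 14 and 13 remained.

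The gate chose its members by the counts of its genes, so the levels of these genes elsewhere are given only as the background of the counts. Mpo had 19 UMIs at D11 and 329 at D14 in all other kept barcodes, and 209 and 31 in the progenitor-like barcodes. In the pro-B barcodes, kept barcodes with 5 or more UMIs of the 4 pro-B genes (99 at D11 with a median of 30961 UMIs, and 743 at D14 with 32526), at least 1 Mecom UMI was found in 0 of 99 (a Clopper-Pearson upper bound of 3.66%, or 3.03% by the limit of 3 counts) and in 0.808% (0.297 to 1.75). In neutrophil barcodes, those with 2% or more of their UMIs in S100a8 and S100a9 and medians of 3500 and 4963 UMIs, Mecom was found in 0.186% and 0.188%. Among progenitor-like barcodes it was found in 3 of 4, 11 of 18 and 14 of 15. Mpo was found in 9.69% (72 of 743) of the D14 pro-B barcodes, at 4.26 CPM, and 7 of them had 3 or more UMIs. It was found in 13 of 18 progenitor-like barcodes at D11 and 4 of 15 at D14.

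Genes outside the gate were ranked by the lower of their log2 differences from all other kept barcodes at D11 and D14. Prkg1, Adgrl4 and Angpt1 came first, and the progenitor-like barcodes held most of their UMIs. They held 233 of the 234 Prkg1 UMIs of the members at D11 and 215 of 221 at D14, while the Cd300e-Fcgr4 cluster held 0 and 6. Of Angpt1 they held 642 of 660 and 732 of 740. Prkg1, a cGMP-dependent kinase, was higher in the members by 6.97 on the log2 scale at D11 and 6.80 at D14. Adgrl4, an adhesion receptor of endothelium and stem cells, was higher by 6.20 and 6.96, and Angpt1, the ligand of the Tie2 receptor, by 6.15 and 5.80. Flt3, a cytokine receptor of early lymphoid and myeloid progenitors, was higher by 4.25 and 4.16, and the non-coding host gene Mir99ahg by 5.14 and 4.84. The rest of the 15 leading genes (Arhgap32, Ccser1, Auts2, Rnf150, Ube2e2, Plxdc2, Aig1, Rnf220, Pde4d and Pard3b) lay between 3.35 and 6.07 on the same scale in either library. Plxdc2 also reached 116 CPM in the ncMono barcodes outside the gate at D14, where Angpt1 was at 9.25 CPM.

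Over all members, the comparison of D14 with D11 is of sums whose makeup differed as given above, and the part of the makeup in each difference was not tested. Of 4498 genes with at least 50 CPM in either sum, 11.9% were 2-fold or more higher at D14 and 8.49% were 2-fold or more lower. Against that background, 7 of 8 ncMono markers were higher at D14 and 5 of 8 measured monocyte progenitor genes were higher, among them Csf1r (172 to 466 CPM), the receptor for the macrophage growth factor. Of 6 measured MHC class II genes 5 were lower, and both measured NK genes were lower. Gzma, a granzyme of NK cells, went from 219 to 2.74 CPM, and Ccl5, a chemokine of NK and T cells, from 579 to 52.1. Of 13 measured HSPC markers outside the gate, 0 were past 2-fold higher and 3 were lower (Gata2, Myb and Ikzf2), and their summed level was 3774 and 2795 CPM. Some of the genes with the largest differences lay in 1 class. Lifr, the receptor for leukemia inhibitory factor, was at 3.65 and 252 CPM, and 173 of its 184 UMIs at D14 lay in the Cd300e-Fcgr4 cluster. Lpl, lipoprotein lipase, was at 7.31 and 226 CPM with all 165 of its D14 UMIs there. Rps6ka2, C3, Hspa1b, Hspa1a, Hmox1, Ccdc192, Ehd1 and Glis3 completed the 10 genes with the largest excess at D14. The 10 with the largest excess at D11 were Gzma, Hist1h1b, Ccl4, Ccl5, Slc24a3, Hdc, Serpinb1a, 4933406I18Rik, Hist1h1e and Top2a.

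In the Cd300e-Fcgr4 cluster itself, where 8.85% of 4284 genes were past 2-fold higher at D14 and 9.43% lower, 0 of the 8 ncMono markers were past 2-fold in either direction. The markers summed to 3060, 3837 and 3534 CPM. Heat shock genes were higher at D14 for 5 of 8 measured (Hspa1a, Hspa1b, Hsph1, Hspd1 and Bag3), and their sum was 1224, 1514 and 2707 CPM. With them, 5 of 11 immediate early genes (Fos, Fosb, Junb, Ier3 and Atf3) were past 2-fold lower at D14, and all 4 measured hemoglobin genes were higher, from 1153 to 14944 CPM in sum. Of the 7270 hemoglobin UMIs at D14, 7085 lay in 3 barcodes, and without these the D14 level was 427 CPM. The part of either in the heat shock difference was not tested. Of 5 measured MHC class II genes 4 were lower, with H2-Aa at 836 CPM at D11 and 12.3 at D14, and 5 of the 9 D11 barcodes held a UMI of it. Of the 447 MHC class II UMIs at D11, 398 lay in 3 barcodes, and without these the list was at 630.4 and 121 CPM.

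Comparisons below are of the progenitor-like barcodes alone, a set chosen after the data were seen, whose UMIs summed to 64214, 351064 and 210606. Of 4657 genes with 50 CPM or more at D11 or D14, 17.6% were 2-fold or more higher at D14 and 14.4% lower, with a median log2 ratio of 0.24 over all of them. TMM scaling would lower every log2 ratio of D14 to D11 by 0.21. With the highest barcode for each gene left out of both sums, 700 of the 818 higher genes and 631 of the 672 lower genes were still past 2-fold. Of the genes named below as past 2-fold, Tgfbr1, Cd63, Myc, Csf2rb, Car1 and Aqp1 were then within it. The naive sum rests on 4 barcodes, 2 of them marked by another lineage, and its values are given only as levels.

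Mecom was the stem-arm gene that differed most between D11 and D14. Per barcode, Mecom ran from 0 to 11 UMIs in the naive library with a median of 3.5, from 0 to 49 at D11 with a median of 3.5, and from 0 to 90 at D14 with a median of 28. The ranges overlapped, and the difference lay in how many barcodes were high. In the sums, Mecom was at 280, 456 and 2066 CPM, a log2 ratio of D14 to D11 of 2.18 (1.92 to 2.45), or 1.97 without the highest D14 barcode. Hlf had medians of 1, 0.5 and 4 UMIs per barcode and highest values of 11, 16 and 21. Its sums were 202, 148 and 522 CPM, a log2 ratio of 1.82 (1.33 to 2.32). Meis1 was found in 3 of 4 naive barcodes and in every D11 and D14 barcode, with medians of 10, 22.5 and 24 UMIs. Its sums were 529, 1179 and 1942 CPM, a log2 ratio of 0.72 (0.52 to 0.92). Kit was close between the leukemic libraries, at 296, 191 and 237 CPM with a log2 ratio of 0.31 (-0.24 to 0.86). Since these genes chose the barcodes, the values describe the members.

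Of the granule-arm genes, Mpo and Ctsg ran the other way within the barcodes that the gate retained. Both are gate genes, so their values describe the members. The exclusions had removed 10 barcodes at D11 and 41 at D14 that passed the granule arm without the stem arm. In all other kept barcodes Mpo was higher at D14, at 0.522 CPM at D11 and 6.52 at D14. Mpo, the myeloperoxidase gene, had medians of 0, 2 and 0 UMIs per barcode and highest values of 13, 71 and 27. Its sums were 202, 595 and 147 CPM, a log2 ratio of D14 to D11 of -2.02 (-2.61 to -1.47). A single barcode held 87.1% of the D14 Mpo UMIs, and without it the log2 ratio was -4.89 (-6.78 to -3.51). Of the 209 Mpo UMIs at D11, 3 barcodes held 71, 58 and 25, so the size of the difference rests on few barcodes. Ctsg, which encodes cathepsin G, was found in 2 of 4, 8 of 18 and 1 of 15 barcodes, and stood at 62.3, 447 and 9.50 CPM, a log2 ratio of -5.56 (-8.62 to -3.68). Of its 157 UMIs at D11, 143 lay in 3 barcodes, one of them basophil-marked, and without these the levels were 58.2 and 9.50 CPM (-2.61, -5.79 to -0.49). Prtn3, proteinase 3, was at 46.7, 74.1 and 57.0 CPM with an interval that holds no difference (-1.50 to 0.66 on the log2 scale). Elane, neutrophil elastase, had 0, 2 and 0 UMIs. Of 3 measured granule precursor genes outside the gate, 2 were lower at D14: Serpinb1a, an inhibitor of granule proteases, at 467, 362 and 85.5 CPM, and Cd63, a granule membrane protein, at 125, 188 and 71.2 CPM. Genes of the secondary granules, which later precursors make, had 0, 8 and 10 UMIs in all.

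**Figure D3:**
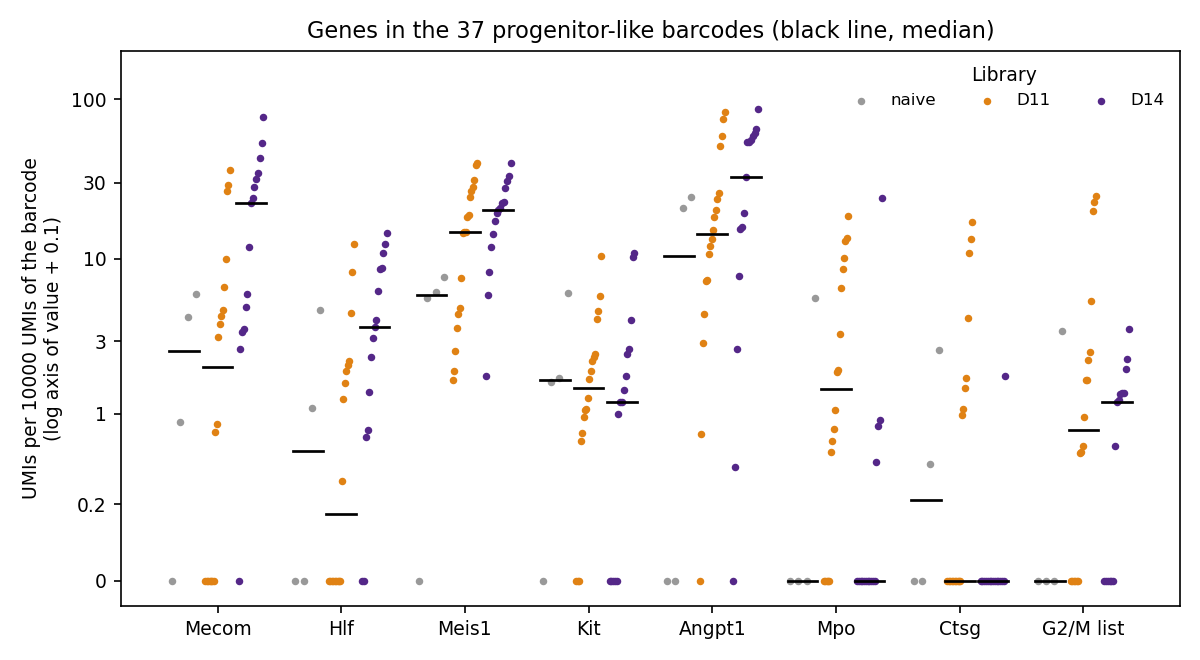
Each point is 1 of the 37 progenitor-like barcodes, and the y axis is a gene's UMIs per 10000 UMIs of that barcode on a log axis of the value + 0.1; colors give the library and black lines the median. Mecom and Hlf have their highest medians at D14 (22.4 and 3.70 per 10000), Mpo has a median above 0 only at D11 (1.48), and all ranges overlap between libraries.

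At a higher resolution, 1, the 37 barcodes split into 2 clusters that differed in Mecom, Hlf and granule genes. One cluster of 19 barcodes (3, 12 and 4) was led by Cpa3, Hist1h1b, Rab44, Serpinb1a and Hist1h1a, and the other, of 18 barcodes (1, 6 and 11), by Ppp2r2b, Prdm16, Rgs7bp, Iigp1 and Gulp1. They are called the Cpa3 and the Prdm16 cluster. The Prdm16 cluster was progenitor-like by its markers, but the Cpa3 cluster kept no name at this resolution or at 1.5. It had 12 of 20 HSPC markers, 7 of 11 basophil and mast cell markers and 5 of 12 granule precursor markers. Among its 10 leading genes, 0 were of the HSPC list and 1 was of each of the other lists. The Prdm16 cluster had 13 of 20 HSPC markers, also with 0 among its 10 leading genes. In the Cpa3 cluster, a D11 barcode held 497 UMIs of the basophil list and a naive barcode 82, and no other held more than 5. As a share of kept barcodes, the Cpa3 cluster took 0.0787%, 0.263% and 0.0906%, a ratio of D14 to D11 of 0.345 (0.0811 to 1.14), and the Prdm16 cluster 0.0262%, 0.131% and 0.249%, a ratio of 1.90 (0.643 to 6.25). Mecom was at 130 CPM in the Cpa3 cluster and 2210 in the Prdm16 cluster, and Hlf at 143 and 477. Meis1 was at 772 and 2234 CPM, while Kit was at 243 and 180. Prdm16, a transcription factor of stem cell maintenance and a close relative of Mecom, was at 5.40 and 207 CPM. Outside the gate, Angpt1 was at 1475 and 3603 CPM and Adgrl4 at 856 and 2191. Granule genes were higher in the Cpa3 cluster, with Mpo at 664 and 27.4 CPM, Ctsg at 435 and 7.82, and Serpinb1a at 440 and 46.9. Mki67, a gene of proliferating cells, was at 178 and 11.7 CPM, and 58 of its 66 UMIs in the Cpa3 cluster lay in 3 of the 19 barcodes. Without the 3 highest barcodes for each gene, the level in the Cpa3 cluster was 31 CPM for Mki67, 69.2 for Ctsg and 329 for Mpo. Cpa3, a protease of mast cells and their progenitors, had 39 UMIs in the Cpa3 cluster and 0 in the other, and Hist1h1b, a linker histone of dividing cells, had 164 and 0, found in 5 and 4 of the 19 barcodes.

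The ratio of D14 to D11 in the sums thus mixed the 2 clusters, with 12 and 6 barcodes at D11 and 4 and 11 at D14. Within the Prdm16 cluster, Mecom was at 1738 and 2560 CPM (log2 ratio 0.56, 0.28 to 0.85), Hlf at 431 and 533 (0.30, -0.28 to 0.92) and Meis1 at 2855 and 2094 (-0.45, -0.69 to -0.20). Within the Cpa3 cluster, Mecom was at 84.5 and 264 CPM (log2 ratio 1.65, 0.50 to 2.71, or 1.43, -0.038 to 2.69, without the D14 barcode that held 5 of its 12 UMIs). Hlf was at 66.1 and 485 (2.87, 1.91 to 3.86, or 1.40, -0.22 to 2.80, without the D14 barcode that held 16 of its 22 UMIs). Mpo was at 753 and 617 CPM (-0.29, -0.91 to 0.29). A single barcode held 27 of the 28 Mpo UMIs of the Cpa3 cluster at D14. Without it the D14 level was 29.2 CPM and the log2 ratio -4.69 (-10 to -2.19). At D11, 3 of the cluster's 12 barcodes held 71, 58 and 25 Mpo UMIs. The comparison of Mpo within the cluster thus rests on few barcodes in each library, and its direction is not settled. Ctsg was at 569 and 44.1 CPM within the Cpa3 cluster (-3.69, -6.75 to -1.81). Of its 155 UMIs there at D11, 143 lay in 3 barcodes, among them the basophil-marked and the deepest one, and without these the levels were 74.1 and 44.1 CPM (-0.75, -3.95 to 1.42). Erg was higher in both clusters, at 206 and 397 CPM in the Cpa3 cluster and 406 and 611 in the Prdm16 cluster, while Adgrl4 was at 775 and 551 CPM in the former and 1573 and 2615 in the latter. Ribosomal protein genes took 17.6%, 14.6% and 6.68% of the progenitor-like UMIs. In the Cpa3 cluster they took 19.7%, 17.5% and 10.5%, and in the Prdm16 cluster 8.21%, 4.36% and 5.62%. Mitochondrial genes took 3.37%, 4.27% and 5.20% over the 37. In the Cpa3 cluster they took 3.20%, 3.68% and 5.86%, and in the Prdm16 cluster 4.15%, 6.31% and 5.01%. The ribosomal share was thus lower in the Prdm16 cluster in every library. The mitochondrial share was higher there in the naive and D11 libraries and lower at D14. The part of either share in the differences between D11 and D14, or between the 2 clusters, was not tested.

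For 4 genes that differed between the clusters, promoter sequences are shown so that 2 genes higher in each cluster can be compared. Each runs from 250 bases before to 50 after the RefSeq start in GRCm38.p6, 5′ to 3′ on the gene's strand, and capitals mark the only matches to the motifs searched. Hlf (chr11:90390868-90391167, minus strand) and Prdm16 (chr4:154636824-154637123, minus) were higher in the Prdm16 cluster, and Mpo (chr11:87793534-87793833, plus) and Ctsg (chr14:56102525-56102824, minus) in the Cpa3 cluster.
Hlf: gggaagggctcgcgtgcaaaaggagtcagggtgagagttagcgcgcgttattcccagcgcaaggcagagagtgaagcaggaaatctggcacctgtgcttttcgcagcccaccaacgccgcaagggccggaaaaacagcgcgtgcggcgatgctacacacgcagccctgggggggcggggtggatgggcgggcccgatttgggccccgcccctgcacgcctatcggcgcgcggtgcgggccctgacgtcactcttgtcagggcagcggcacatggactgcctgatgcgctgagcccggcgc
Prdm16: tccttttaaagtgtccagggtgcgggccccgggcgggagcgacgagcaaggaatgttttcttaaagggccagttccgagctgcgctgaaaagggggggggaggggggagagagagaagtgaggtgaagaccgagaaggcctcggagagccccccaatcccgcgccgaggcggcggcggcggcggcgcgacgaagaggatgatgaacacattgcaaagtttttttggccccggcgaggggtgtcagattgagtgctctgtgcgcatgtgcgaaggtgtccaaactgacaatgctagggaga
Mpo: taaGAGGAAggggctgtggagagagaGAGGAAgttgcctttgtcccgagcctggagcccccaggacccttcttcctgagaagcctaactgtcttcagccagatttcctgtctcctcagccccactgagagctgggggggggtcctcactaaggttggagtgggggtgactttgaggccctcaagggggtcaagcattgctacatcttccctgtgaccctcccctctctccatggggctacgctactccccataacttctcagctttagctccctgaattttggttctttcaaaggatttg
Ctsg: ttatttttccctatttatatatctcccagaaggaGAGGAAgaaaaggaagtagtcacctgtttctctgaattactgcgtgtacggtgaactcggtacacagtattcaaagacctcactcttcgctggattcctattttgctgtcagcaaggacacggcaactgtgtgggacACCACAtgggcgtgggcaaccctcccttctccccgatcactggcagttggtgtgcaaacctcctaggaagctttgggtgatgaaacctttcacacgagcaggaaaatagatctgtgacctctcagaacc

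The bases G and C made up 67.3% of the Hlf window, 61.0% of Prdm16, 55.3% of Mpo and 48.0% of Ctsg. On both strands, the windows were searched for 4 motifs. AGATAA is read by factors of the GATA family, TGTGGT by RUNX factors, TTGCNNAA by the C/EBP family and GAGGAA by factors of the ETS family. The Mpo window held GAGGAA at 247 and 224 bases before the RefSeq start. The GENCODE start of Mpo given above lies inside this window, upstream of the RefSeq start, so these distances hold for the RefSeq start only. The Ctsg window held GAGGAA at 216 bases before the start and the RUNX motif on the opposite strand, read as ACCACA, at 79. No match to these letters was in the Hlf or Prdm16 window. Over all 32851 promoters of the table, the shares with a match were 11.2% for AGATAA, 16.8% for TGTGGT, 10.8% for TTGCNNAA and 28.3% for GAGGAA.

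The HSPC markers beyond the gate summed to more at D14, largely through Angpt1 and Adgrl4, and few single genes passed 2-fold. The 20 HSPC markers summed to 5855, 5526 and 9126 CPM in the progenitor-like barcodes, a log2 ratio of D14 to D11 of 0.72 (0.63 to 0.82). Of the 15 measured, 2 (Erg and Adgrl4) were past 2-fold higher, a share below the 17.6% of all genes, 0 were past 2-fold lower, and their median log2 ratio was 0.44 beside 0.24 over all genes. Erg, an ETS transcription factor of stem cells, was at 280, 251 and 565 CPM and was found in 14 of 15 barcodes at D14. It was also found in 71.7% of the D14 pro-B barcodes, at 151 CPM. Adgrl4 was at 1324, 954 and 2170 CPM, and 136 of its 457 D14 UMIs lay in 1 barcode. Without it the D14 level was 1691 CPM and the log2 ratio 0.83 (0.60 to 1.05), within 2-fold. With the TMM shift, neither Erg nor Adgrl4 would be past 2-fold. Adgrl4 stood at 0.159 CPM in the D14 pro-B barcodes. Angpt1 was at 1448, 1829 and 3476 CPM, with medians of 22.5, 23.5 and 44 UMIs per barcode and highest values of 48, 139 and 124. Cd34, the stem cell surface sialomucin, was at 748, 162 and 266 CPM, and 58.3% of the naive UMIs came from the endothelial-marked barcode. Flt3 was at 343, 202 and 299 CPM. Procr, a surface marker of stem cells, had 0, 3 and 2 UMIs, Prom1 was at 0 in all libraries, and Ly6a, which encodes Sca-1, had 0, 0 and 1 UMI. With the 4 lineage-marked barcodes left out, the log2 ratio of the HSPC list was 0.56, and with TMM scaling it was 0.51. As a mean over barcodes it was 0.40, while the 0.24 over all genes is of sums.

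Of 25 transcription factors of blood cell development, 16 were measured. Erg was past 2-fold higher at D14 and Myc, the growth regulator, was lower (15.6, 59.8 and 23.7 CPM, a log2 ratio with an interval of -3.10 to 0.11). Runx1, needed for the first blood stem cells, was at 1043, 1458 and 2303 CPM, and Ikzf1, a regulator of lymphoid fate, at 467, 536 and 978. Myb was at 156, 310.5 and 228 CPM, Gata2 at 311, 99.7 and 76.0, and Ikzf2 at 234, 604 and 579. Gata1, the erythroid and megakaryocyte factor, had 1, 2 and 0 UMIs, and Cebpa, the factor of granulocyte commitment, 2, 17 and 2. Of 16 megakaryocyte genes 4 were measured and 0 were past 2-fold. Among them Fli1, an ETS transcription factor, was at 498, 282 and 465 CPM.

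Cell cycle genes were lower at D14 in the sums, where a few barcodes held most of their UMIs. Of 11 measured S-phase genes 8 were past 2-fold lower and 0 higher, against 14.4% of all genes, and the list summed to 311, 1137 and 432 CPM. All 4 measured G2/M genes were lower, and that list summed to 125, 815 and 104 CPM, a log2 ratio of -2.96 (-3.66 to -2.34). Mki67 was at 15.6, 188 and 9.50 CPM, Top2a, the topoisomerase of dividing cells, at 93.4, 185 and 33.2, and Pcna, the replication clamp, at 93.4, 148 and 57.0. The deepest member, a D11 barcode with 54434 UMIs, held 135 of the 286 G2/M UMIs, with 71 of Mpo and 59 of Ctsg. Another 2 D11 barcodes held 71 and 54. Without the deepest barcode, the log2 ratio was -2.28 for the G2/M list and -0.76 for the S-phase list. Without these 3, which were picked for their G2/M UMIs, the other 15 D11 barcodes held 26 UMIs of that list, 109 CPM against 104 at D14, a log2 ratio of -0.062 (-0.95 to 0.81), and the S-phase list was at -0.11. A single D14 barcode held 43 of the 91 S-phase UMIs of that library. With it left out as well, the S-phase list was at 465 and 255 CPM, a log2 ratio of -0.87 (-1.39 to -0.37), and with it alone left out at -2.16. The median barcode had 0, 1 and 2 G2/M UMIs. A UMI of the list was found in 25%, 66.7% and 60% of barcodes, and in 0%, 27.8% and 13.3% after random thinning to 2000 UMIs each. Mki67 was found in 1 of 4, 7 of 18 and 1 of 15 progenitor-like barcodes, or 25%, 38.9% and 6.67%. Thinned in the same way, they gave 0%, 16.7% (3.58 to 41.4) and 0%, with an upper limit of 20% for 0 of 15 taken as 3 counts. In thinned neutrophil barcodes at the same stages the shares were 2.01% and 3.06%, and in thinned pro-B barcodes 59.6% and 37.4%.

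**Figure D4:**
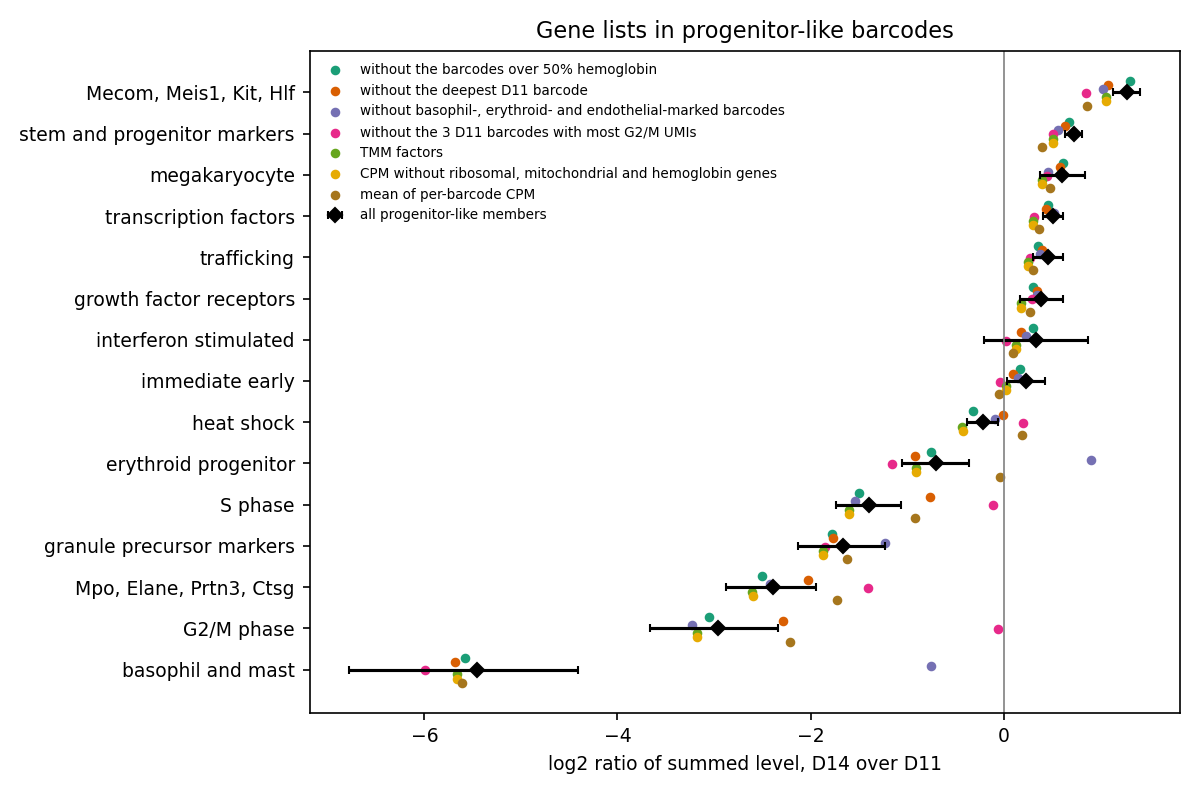
Black diamonds give the log2 ratio of D14 to D11 of the summed level of each gene list in the progenitor-like barcodes, with 95% intervals for counting error, and colored points give the same under 7 other treatments of the barcodes or the scaling. Stem-arm and HSPC lists (1.27 and 0.72) lie above 0 under all 7 treatments, none of which separates the Cpa3 and Prdm16 clusters. The stem-arm and granule-arm genes belong to the gate, so their ratios describe the members. The median log2 ratio over all genes was 0.24. S-phase and G2/M lists go from -1.40 and -2.96 to -0.11 and -0.062 without 3 D11 barcodes. The basophil list goes from -5.46 to -0.76 without the marked barcodes.

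Among genes outside the gate, the 10 with the largest excess at D14 were Iigp1, Frmd4b, Glis3, Rgs7bp, 2210408F21Rik, Sema3d, Gda, Rcan2, Hspa1b and Hspa1a. Glis3, a zinc-finger transcription factor, had 3 UMIs in 3 of 18 barcodes at D11 and 73 in 8 of 15 at D14 (8.55 and 347 CPM), and was higher in both clusters, at 7.35 and 419 CPM in the Cpa3 cluster and 12.7 and 327 in the Prdm16 cluster. Iigp1, an interferon-inducible GTPase, had 1 and 38 UMIs, found in 1 and 5 barcodes (2.85 and 180 CPM). Rgs7bp and Sema3d rested on 1 barcode, which held 84.6% and 86.0% of their D14 UMIs. Frmd4b had 1 and 33 UMIs, the latter in 8 barcodes, Gda, guanine deaminase, 3 and 29 in 10 barcodes, and Rcan2, a calcineurin regulator, 6 and 51 in 7. In the ncMono barcodes outside the gate at D14, Gda was at 365 CPM, 2210408F21Rik at 167, Hspa1b at 593 and Hspa1a at 456. These levels exceeded those in the progenitor-like barcodes at D14 (138, 104, 204 and 138 CPM), while the rest of the 10 were lower there. The 10 with the largest excess at D11 were Mcpt8, Hist1h1b, Ms4a2, Spag6l, Hist2h2ac, Hist1h1a, Mki67, Ccl4, Smc2 and Ppp1r14b, of which the histones, Mki67 and the condensin gene Smc2 belong to dividing cells. Hist1h1b had 164 UMIs in 4 barcodes at D11 and 0 at D14, at least 32.8-fold lower with the floor set at 3 counts in the D14 sum. Mcpt8 was at least 61.6-fold lower and Ms4a2 at least 7.20-fold lower, and both are basophil genes whose D11 UMIs came almost whole from the marked barcode.

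**Figure D5:**
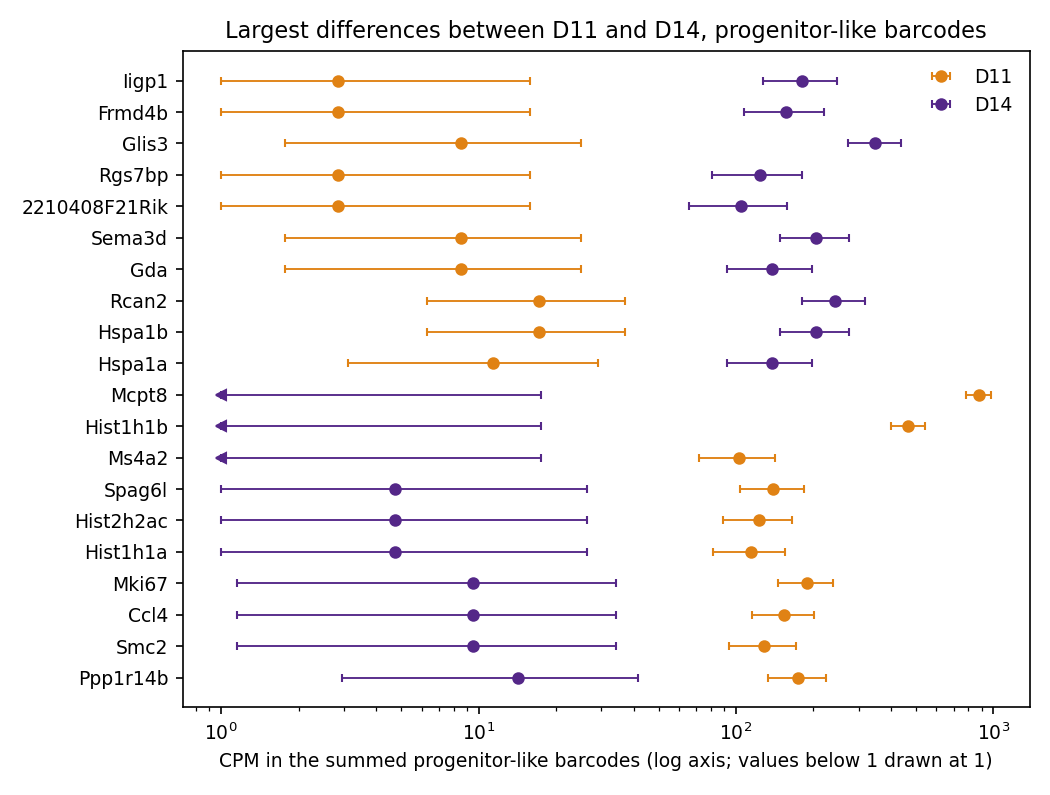
Points give the CPM of each gene in the summed progenitor-like barcodes at D11 and D14 on a log axis, with 95% Poisson intervals for counting error; arrowheads at 1 mark genes with 0 UMIs. The 10 upper genes range from 104 to 347 CPM at D14 and from 2.85 to 17.1 at D11, and the 10 lower genes from 103 to 877 CPM at D11 and from 0 to 14.2 at D14.

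Stress genes split in direction. The inducible heat shock genes Hspa1a (0, 11.4 and 138 CPM) and Hspa1b (0, 17.1 and 204) and the co-chaperone Hsph1 (46.7, 51.3 and 427) were past 2-fold higher at D14. The mitochondrial chaperones Hspe1 (171, 285 and 90.2) and Hspd1 (140, 396 and 147) were past 2-fold lower. Of the D14 Hsph1 UMIs, 47.8% lay in 1 barcode. Hspa1b was also higher at D14 in all other kept barcodes, at 3.05, 26.6 and 142 CPM. The list of 10 heat shock genes had a log2 ratio of -0.22, which was 0.19 as a mean over barcodes. Of 11 measured immediate early genes, which respond within minutes to handling and signals, Egr1 alone was past 2-fold (62.3, 17.1 and 90.2 CPM). The interferon-stimulated list had 44, 70 and 53 UMIs, with 2 of its 16 genes measured.

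Receptors and homing molecules were mostly within 2-fold. Of 9 measured growth factor and cytokine receptors, Il1r1, the interleukin-1 receptor, was higher at D14 (93.4, 51.3 and 152 CPM), as was Tgfbr1 (46.7, 91.2 and 199), and Csf2rb, the shared chain of the IL-3 and GM-CSF receptors, was lower (234, 68.4 and 33.2). Of 8 measured trafficking genes, Selplg, the ligand of P-selectin, was past 2-fold higher at D14 (93.4, 37 and 95 CPM), and 6 were within 2-fold. Cd44, a hyaluronan receptor, was at 623, 501 and 978 CPM, Cd47, the signal against engulfment, at 950, 541 and 788, and Itga4, a chain of the integrin VLA-4, at 311, 422 and 446. Cxcr4, the receptor that holds stem cells in the marrow, had only 2, 23 and 8 UMIs.

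Other lineages left few UMIs in the progenitor-like barcodes. The NK list had 0, 2 and 0 UMIs, the T-cell list 2, 5 and 6, the dendritic list 0, 3 and 6, the eosinophil list 1, 1 and 1, and the plasma cell list 0, 12 and 11. The mature B list had 2, 5 and 23 UMIs, the MHC class II list, which shares 3 genes with it, 8, 22 and 42, and the ncMono list 24, 89 and 60. The ILC2 list had 18, 61 and 45 UMIs, of which Rora held 6, 56 and 41, the mature neutrophil list 46, 23 and 18, and the monocyte progenitor list 11, 42 and 36. Of 5 measured erythroid progenitor genes, Car2 and Tfrc were higher at D14 and Car1, Blvrb and Aqp1 lower. The 5 measured basophil genes and the 4 measured hemoglobin genes were all lower, in lists whose D11 UMIs lay mostly in the basophil-marked and the 2 hemoglobin-rich barcodes. The leukemia list outside the gate had 14, 11 and 36 UMIs, and its 1 measured gene, Fgfr1, the receptor gene whose kinase forms part of the BBC2 oncogene, had 1 UMI at D11 and 14 at D14 in 4 of 15 barcodes. Fgfr1 was found in 25.4% of the D14 pro-B barcodes, and the counts do not tell the mouse gene from the chimera.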

How the data were processed

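PB leukocytes were profiled with 10x Genomics 3′ v3 reagents, and the authors deposited filtered matrices of UMI counts per gene and barcode for 3 libraries. The submitters' processing notes name Cell Ranger 7.1.0 and mm10, while the matrix headers name 5.0.1. The gate was applied where 200 genes or more were found and mitochondrial genes took no more than 10% of UMIs. The members and the gene lists were chosen with earlier results of these data known. The progenitor-like group, and every comparison within it, was set after its data were seen.

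Members' counts were scaled to 10000, and 2000 variable genes, without gate, mitochondrial, ribosomal and hemoglobin genes, gave 15 components and 10 neighbours for Leiden clustering at resolution 0.5 (scanpy 1.11.5, leidenalg 0.10.2). A marker counted for a cluster at 4 times the median over clusters and in 10% of its barcodes, and a name needed 3. Doublets were kept, and removed as an alternative (116, 167 and 156 barcodes, with 4, 7 and 4 members). The number removed was preset at 0.8% per 1000 kept barcodes, and those with the highest Scrublet scores were taken. UMIs were summed per library and given as CPM, and genes with 50 CPM in either sum were compared as log2 of CPM + 1, called past 2-fold. Intervals printed beside log2 ratios are of the ratio of UMI counts. Intervals are Clopper-Pearson for shares, Poisson for sums and conditional binomial for ratios (scipy 1.17.1). PCR duplicates were collapsed by UMI, and intervals and floors (3 counts) cover counting error only. Named genes were the gate genes, members of the lists with 100 CPM, and 5 leading genes per cluster. So were the 10 with the largest and the 10 with the smallest D14 to D11 ratio at 100 CPM and in 10% of barcodes. The 15 furthest above other barcodes, by the lower of the D11 and D14 values, were also named. Genes below 100 CPM that the text names were added after their values were seen. TMM factors came from edgeR 4.0.16. The steps were tested on simulated data. Results for a few genes are not reported here.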

Additional observations from a re-analysis of the deposited data

Results flagged for a closer look

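Barcodes left out by the limits on genes and mitochondrial UMIs were put through the same gate. At D14, 15 of 4923 passed (0.305%, 0.171 to 0.502), against 1 of 1575 in the naive library (0.0635%, 0.00161 to 0.353) and 2 of 3969 at D11 (0.0504%, 0.00610 to 0.182), and this signal in barcodes that no comparison used is why it is given here. The interval of D14 overlaps both others, and overlap of separate intervals does not show that the shares are alike. All 15 had over 10% mitochondrial UMIs, with a median of 32.6%, and a median of 2904 UMIs. Of the 15, 8 had 10 or more stem-arm UMIs, as did both at D11 and 0 in the naive library. Of the 15, 0 had 10 or more UMIs of the ncMono markers. The shares and ratios of members and progenitor-like barcodes count none of these barcodes. The difference was not tested, since each condition is 1 library.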

How the results depend on the processing

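Each condition is 1 library, so no alternative can show the spread between mice. No paired analysis was possible because each group has 1 sample. Thresholds and depth moved the number of members. With 2 stem-arm or 3 granule-arm UMIs there were 30, 59 and 80 members, with 5 or 10 there were 8, 20 and 22, thinned to 2000 UMIs 2, 14 and 19, and with 10 stem-arm UMIs 2, 18 and 15, where the ratio of D14 to D11 was 0.862 in place of 1.52. Progenitor-like barcodes in the naive library went from 4 to 2 without the lineage-marked barcodes and to 1 without doublets, and at D11 and D14 stayed within 1.5 times of 18 and 15. The share of members passing the granule arm (6.25%, 19.4% and 1.89%) was 0% at D14 with 500 genes and 5% mitochondrial UMIs, 0% in the naive library with the lineage genes at 0, 0% in both with doublets removed, and 0% in the naive library and 15.8% at D14 when thinned. Genes past 2-fold in all members, 535 higher and 382 lower, numbered 823 and 910 at 20 CPM, 201 and 98 at 200 CPM, and 635 lower with ribosomal, mitochondrial and hemoglobin genes left out of the total. Thinning took the share of members with a Mki67 UMI from 12.5%, 22.2% and 18.9% to 0%, 8.33% and 5.66%. That of the G2/M list went from 47.2% and 49.1% at D11 and D14 to 19.4% and 9.43%. Thinning was random and drawn separately for each set. At D14 it left a G2/M UMI in 5 of 53 members, but in 6 of 36 barcodes of the Cd300e-Fcgr4 cluster alone. The thinned shares thus vary between draws.

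Some D14 to D11 log2 ratios over all members changed sign. With 5 stem-arm or 10 granule-arm UMIs, the mature B list was at 1.77, the MHC class II list at 1.59 and Ccl5 at 1.97. Without doublets Hist1h1e was at 0.87 and Top2a at 0.85, and with the lineage genes at 0 Hist1h1b was at 0.23, Hist1h1e at 1.58 and Top2a at 0.45. In granule-arm members alone the ncMono list was at -2.65. In progenitor-like barcodes, the erythroid list was at 0.90 without the lineage-marked barcodes, and as a mean over barcodes the heat shock list was at 0.19 and the immediate early list at -0.047. Without the 3 D11 barcodes with most G2/M UMIs these lists were at 0.20 and -0.038, the granule-arm genes went from -2.39 to -1.41, and the S-phase and G2/M lists were at -0.11 and -0.062. These alternatives use fewer barcodes or other weights, and the cause was not tested. The settings from 10 stem-arm UMIs on, and those for progenitor-like barcodes, were chosen after seeing the data, as were those that leave out the highest barcodes. TMM shifted log2 ratios by 0.04 in all members and by -0.21 in progenitor-like barcodes.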
